A study of Mus musculus with 5 samples.

Results

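The genes described here are the 39 mouse Hox genes of the HoxA, HoxB, HoxC and HoxD clusters that the deposited gene list named, together with Tbx4 and Pitx1. They were found by symbol, as Hoxa, Hoxb, Hoxc or Hoxd followed by a number, and make 41 of 32285 genes, with 11 Hoxa, 10 Hoxb, 9 Hoxc and 9 Hoxd members. They were followed in nuclei of hindlimb muscle, each of which gave both RNA and ATAC (open chromatin) reads by 10x Genomics multiome sequencing. The 5 libraries came from C57bl6n mice: Cacna1s-/- fetuses at E18.5 (KO, 26 pooled hindlimbs) and wild-type animals at E14.5 (56 hindlimbs), E18.5 (14 hindlimbs), P5 (8 hindlimbs) and as adults of 8 weeks (4 hindlimbs), where E is the embryonic and P the postnatal day. Cacna1s encodes the pore subunit of the muscle calcium channel that couples excitation to contraction, and the KO allele is a cassette insertion that deletes its coding region. Each library pooled animals, and the adults were of both sexes. Each library was sorted into nuclei with and without PCM1, a protein of the myonuclear surface, which were then mixed in equal volumes, so shares of nuclei do not give tissue proportions. Each group was 1 library, so differences between stages and between genotypes have no replicate check.

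Hox genes encode homeodomain factors that give cells a position along the body and limb axes. In each cluster the low numbers lie at the end that is active first and most anteriorly, and the high numbers at the end active in posterior trunk and distal limb, with the Hox9 to Hox13 genes of HoxA and HoxD known for patterning the limb from shoulder or hip to digit. Pitx1, a bicoid-type homeodomain factor, and Tbx4, a T-box factor that acts downstream of it, are expressed in the hindlimb bud and not in the forelimb bud, where Tbx5 takes the place of Tbx4. Limb connective tissue, tendon and bone come from lateral plate mesoderm, in which these genes pattern the limb. Myofibers and satellite cells come from somites, and macrophages from other sources.

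In the GRCm38 annotation the Hoxa genes lie on chromosome 6 between 52155590 and 52260880, the Hoxb genes on chromosome 11 between 96194316 and 96368256, the Hoxc genes on chromosome 15 between 102921103 and 103036852 and the Hoxd genes on chromosome 2 between 74668310 and 74765142. Tbx4 spans 85886422 to 85916097 on chromosome 11 and Pitx1 55825051 to 55836192 on chromosome 13. Gene models overlap within the clusters: 11 members overlap another member. Among them are Hoxc5, whose model covers Hoxc6, Hoxc8, Hoxc9 and part of Hoxc10, and Hoxa3, which covers Hoxa4, Hoxa5 and Hoxa6. Hoxd3 and Hoxd4 overlap as well. Reads of such genes may be split between neighbours, so levels of single overlapping genes are uncertain.

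Nuclei were placed in 6 classes. A Ttn nucleus had at least 1% of its RNA molecules, counted as unique molecular identifiers (UMIs), from Ttn, the giant sarcomere protein. The other classes held at least 1 UMI of Pax7 (satellite cells and progenitors), Pdgfra (connective tissue cells), Tnmd (tendon), Pecam1 (endothelium) or Csf1r (macrophages), with none of the other 4 markers and Ttn below 1%. Ttn nuclei were not cleared of these markers, and 296 (KO), 252 (E14.5), 441 (E18.5), 388 (P5) and 247 (adult) held at least 1. Of all nuclei with a Pax7 UMI, 147 of 525 (KO), 32 of 250 (E14.5), 214 of 392 (E18.5), 160 of 249 (P5) and 160 of 185 (adult) were Ttn nuclei. The KO, E14.5, E18.5, P5 and adult libraries gave 987, 1867, 1579, 1733 and 4429 Ttn nuclei and 844, 1192, 1142, 684 and 134 Pdgfra nuclei. The adult library had 24 Pax7, 2 Tnmd, 12 Pecam1 and 9 Csf1r nuclei, so adult values below are confined to Ttn, Pax7 and Pdgfra nuclei. In every class with at least 20 nuclei, 6 markers that did not define it summed highest in their own class, except that the connective tissue markers (Col1a1, Col1a2, Col3a1, Dcn, Lum and Ebf2) reached 5191 to 16094 CPM (UMIs per 1000000) in Tnmd nuclei, against 4136 to 11430 CPM in Pdgfra nuclei. Endothelial markers summed to 3929 to 4916 CPM in Pecam1 nuclei and 92.1 to 425 CPM in Pdgfra nuclei, and sarcomere markers to 753 to 1360 CPM in Pdgfra nuclei and 18386 to 46614 CPM in Ttn nuclei. Connective tissue markers summed to 608 (KO), 273 (E14.5), 1536 (E18.5), 1670 (P5) and 41.5 CPM (adult) in Ttn nuclei. Their part in the Ttn levels below was not tested.

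Passing nuclei numbered 3228 to 5106 per library, with 21063081 to 29574992 UMIs in sum and a median of 2888 (adult) to 7821 (KO) UMIs per nucleus. Libraries shared 291 barcodes. Cacna1s had 8 UMIs in KO Ttn nuclei, against 2107, 2390, 4268 and 6440 UMIs in the 4 wild-type libraries. Levels are CPM of all UMIs summed over a class in 1 library, and intervals in parentheses are 95% intervals that cover counting error only.

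Pecam1 nuclei and Pdgfra nuclei differed in the shares of their Hox RNA that came from the Hoxb, Hoxc and Hoxd genes. In Pecam1 nuclei the Hoxb genes held 40.0%, 31.7%, 33.5% and 28.7% of all Hox UMIs in the KO, E14.5, E18.5 and P5 libraries, and the Hoxd genes held 25.2%, 31.2%, 30.7% and 35.6%. The Hoxc genes held no more than 11.4% there, and the Hoxa genes 23.6%, 31.7%, 27.4% and 24.3% in the same order. Pdgfra nuclei were the opposite for Hoxb and Hoxc, with 6.73% (KO), 5.89% (E14.5), 1.42% (E18.5), 1.36% (P5) and 0.758% (adult) of Hox UMIs from Hoxb. Hoxc held 51.7%, 35.3%, 48.6%, 62.0% and 72.7% and Hoxa held 36.6%, 50.7%, 41.2%, 31.1% and 25.0% in the same order. The Hoxa shares of both classes overlapped. Ttn nuclei resembled Pdgfra nuclei in this split, with 45.0% to 66.6% from Hoxc, 31.2% to 41.1% from Hoxa and no more than 2.84% from Hoxb.

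**Figure D1:**
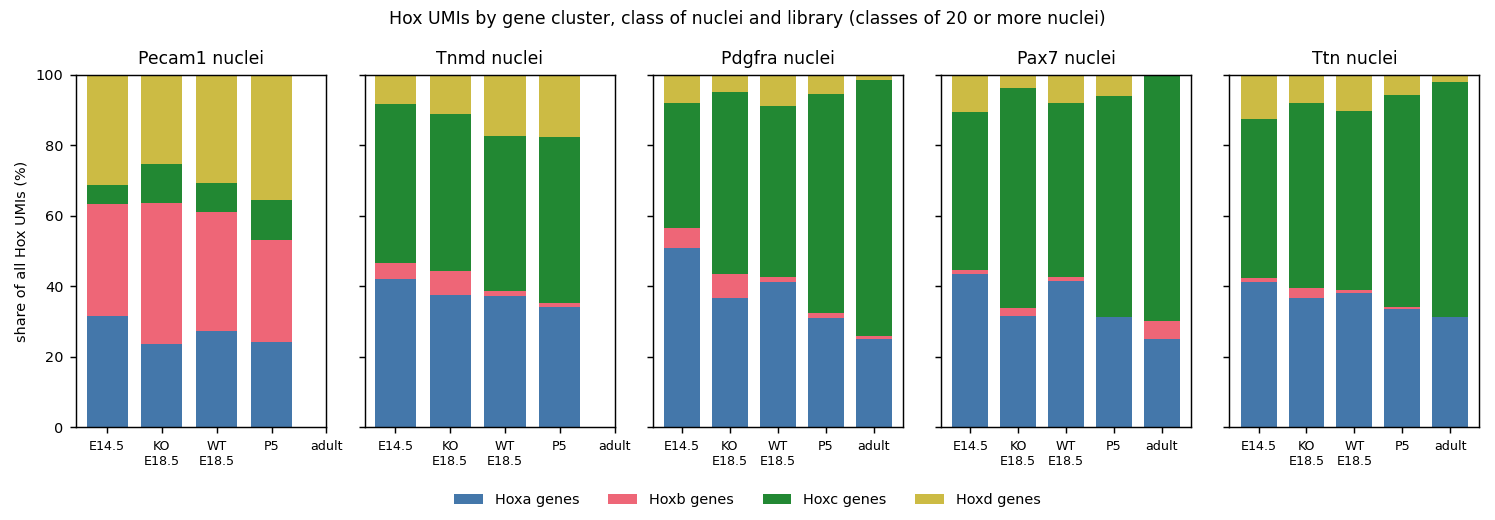
Share of Hox UMIs (percent) held by the Hoxa, Hoxb, Hoxc and Hoxd genes in each nuclear class and library. Each bar is 1 class in 1 library with at least 20 nuclei, and Hoxb and Hoxd together fill 62.9% to 65.3% of the Pecam1 bars, against 2.27% to 14.0% of the Pdgfra bars.

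Summed over the 39 Hox genes, levels were 605, 661, 469, 381 and 464 CPM in KO, E14.5, E18.5, P5 and adult Pdgfra nuclei and 266, 186, 273, 298 and 365 CPM in Ttn nuclei. By CPM the Hox sum was thus higher in Pdgfra than in Ttn nuclei in all 5 libraries. Scaled by library totals, the median of the 11412 genes tested below was itself log2 0.37 higher in Pdgfra than in Ttn nuclei. The CPM sums take no account of that shift. Pecam1 nuclei had 542, 456, 564 and 472 CPM in the KO, E14.5, E18.5 and P5 libraries. Csf1r nuclei had the lowest sums of the 6 classes in each of those 4 libraries, at 109, 36.4, 88.6 and 82.4 CPM. The Hox9 to Hox13 genes, the posterior and distal group, held 34.7%, 46.3%, 50.4%, 39.3% and 23.5% of Hox UMIs in Pdgfra nuclei. In Ttn nuclei their share was 35.8% in KO and 42.6%, 44.3%, 29.8% and 16.2% in the wild-type series. In Pecam1 nuclei it was 12.9% (KO), 26.7% (E14.5), 16.2% (E18.5) and 20.3% (P5), and the Hox1 to Hox4 genes, the anterior group, held 41.6% to 53.8%.

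Differences between classes were tested with edgeR on UMIs summed per class and library, with the library as a term, over 11412 genes, of which 19 were members. The 22 other members did not pass edgeR's filter, which asks for a minimum CPM in enough class sums rather than for a total, so that Hoxc11 with 607 UMIs and Hoxd8 with 341 UMIs in all were left out while Hoxb4 with 154 UMIs was tested. Among those left out, Hoxb1 and Hoxb13 had no UMI in any class and library, and Hoxc12, Hoxd1, Hoxd12, Hoxd13 and Hoxc13 had 2 to 8 UMIs in all. The libraries serve as replicates of a class difference, so the spread includes how a class difference varies with stage and genotype. Fold changes are on the log2 scale, with standard errors (SE) and p-values adjusted by the Benjamini-Hochberg method.

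Endothelial-type (Pecam1) nuclei were set against Pdgfra nuclei in the 4 libraries with enough Pecam1 nuclei. Of the 19 members, 5 were higher, where 10.5% of all genes were higher, and 11 were lower, where 10.6% of all genes were lower. The median log2 difference of the 19 was -1.87, against -0.02 over all genes. Without the filter on low counts, 10 of 39 members were higher and 12 lower, and the median was 0.21, against -0.17 over all genes, so the sign of the median depends on which members are tested and no direction is drawn from it. A member that passed the filter only through its level in Pecam1 nuclei was bound to differ, as may hold for Hoxb4 and Hoxd4. These counts are therefore descriptions. The 5 higher members were Hoxd3, Hoxd4, Hoxb3, Hoxb4 and Hoxb6. The 11 lower members were Tbx4, Pitx1, Hoxd11, Hoxa9, Hoxa10 and all 6 tested Hoxc genes (Hoxc4, Hoxc5, Hoxc6, Hoxc8, Hoxc9 and Hoxc10). Hoxa3, Hoxa5 and Hoxa7 did not pass, at log2 differences of 0.37, 0.60 and 0.43.

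Hoxd4, an anterior HoxD gene, had 60.2 CPM (KO), 72.2 (E14.5), 91.6 (E18.5) and 67.7 CPM (P5) in Pecam1 nuclei, against 5.49, 8.23, 8.18 and 4.08 CPM in Pdgfra nuclei of the same libraries. The levels of both classes lay far apart in all 4 libraries, with a log2 difference of 3.42 (SE 0.37). Hoxd3 next to it had 58.0, 45.4, 62.9 and 30.4 CPM in Pecam1 nuclei, against 8.38, 9.0, 7.77 and 6.25 CPM in Pdgfra nuclei (2.60, SE 0.35). Their gene models overlap, so both may share reads. With library totals in place of TMM factors the counts of 5 and 11 did not move. Hoxb6, a mid-cluster HoxB gene, had 67.8, 39.2, 83.0 and 65.4 CPM in Pecam1 nuclei, against 12.6, 13, 2.45 and 0.816 CPM in Pdgfra nuclei (3.47, SE 0.57). Hoxb4 had 28.4, 35.1, 12.9 and 18.7 CPM in Pecam1 nuclei, against 5.63, 4.40, 0.546 and 0 CPM in Pdgfra nuclei (3.38, SE 0.52). Hoxd3, Hoxd4, Hoxb4 and Hoxb6 may have passed the filter through their Pecam1 levels. Their p-values are therefore left out, and the differences are descriptions only.

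Hoxc4, the most anterior HoxC gene, went the other way, with 8.75, 10.3, 2.86 and 7.01 CPM in KO, E14.5, E18.5 and P5 Pecam1 nuclei, against 77.9, 50.7, 36.0 and 55.5 CPM in Pdgfra nuclei (-3.01, SE 0.38, edgeR adjusted p = 4.53e-06). The Hoxc members between Hoxc5 and Hoxc10 were lower by 1.93 to 2.72 on the log2 scale. Tbx4 had 2.19, 8.26, 7.15 and 14.0 CPM in Pecam1 nuclei, against 25.9, 69.3, 46.9 and 24.2 CPM in Pdgfra nuclei (-2.61, SE 0.40, edgeR adjusted p = 4.99e-05). Pitx1 had 0, 12.4, 7.15 and 4.67 CPM in Pecam1 nuclei, against 19.8, 80.0, 32.9 and 8.97 CPM in Pdgfra nuclei (-2.66, SE 0.63, edgeR adjusted p = 0.00361). The Hoxd11 call was lost without the E18.5 library (adjusted p = 0.126) and without the KO library (adjusted p = 0.106). Connective tissue markers in Pecam1 nuclei summed to 288 (KO), 477 (E14.5), 1857 (E18.5) and 3298 CPM (P5), and their part in the result was not tested.

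**Figure D2:**
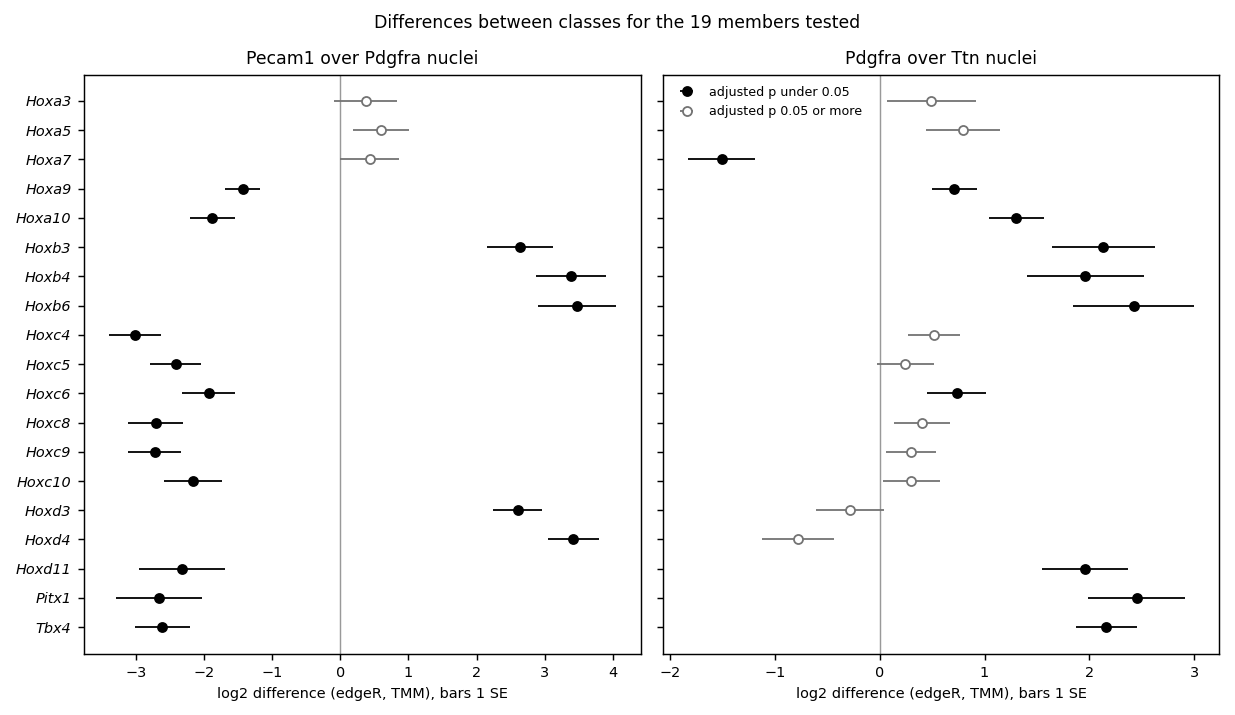
Log2 difference (points) and SE (bars) of each of the 19 tested members for Pecam1 over Pdgfra nuclei (left) and Pdgfra over Ttn nuclei (right), with filled points where the edgeR adjusted p was under 0.05. In the left panel the Hoxb genes, Hoxd3 and Hoxd4 lie to the right of 0 and the Hoxc genes to the left.

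To reduce the influence of depth, each nucleus was also thinned to 1000 UMIs. Tbx4 then had a UMI in 2.96%, 6.79%, 5.30% and 2.37% of KO, E14.5, E18.5 and P5 Pdgfra nuclei, and in no Csf1r nucleus of those libraries, which by a limit of 3 nuclei allows shares of up to 3.49% to 12.5% and so cannot separate the 2 classes at this depth. Hoxb6 was found in 5.05%, 2.78%, 6.14% and 7.14% of Pecam1 nuclei, against 1.07%, 1.36%, 0.18% and 0.15% of Pdgfra nuclei.

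Pdgfra nuclei were set against Ttn nuclei, the myonuclear class, in all 5 libraries. Of the 19 members, 9 were higher, where 23.9% of all genes were higher, and 1 was lower, where 25.0% of all genes were lower. The 9 were both hindlimb factors (Tbx4, Pitx1), the posterior limb genes Hoxa9, Hoxa10 and Hoxd11, Hoxb3, Hoxb4, Hoxb6 and Hoxc6. The member counts depended on scaling: with library totals in place of TMM factors, which moved the median of all genes to 0.37 from -0.06, 16 members were higher and 1 lower, with 4533 of 11412 genes higher and 1648 lower.

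Pitx1 had 19.8, 80.0, 32.9, 8.97 and 0 CPM in KO, E14.5, E18.5, P5 and adult Pdgfra nuclei, against 3.69, 5.02, 4.81, 1.96 and 0.101 CPM in Ttn nuclei, a log2 difference of 2.45 (SE 0.46, edgeR adjusted p = 0.000145). The adult Pdgfra sum held 284626 UMIs, so its 0 allows a level of up to 10.5 CPM. Tbx4, the partner of Pitx1 in the hindlimb, had 25.9, 69.3, 46.9, 24.2 and 24.6 CPM in Pdgfra nuclei, against 5.67, 6.60, 13, 4.66 and 2.02 CPM in Ttn nuclei (2.16, SE 0.29, edgeR adjusted p = 2.14e-06). Pdgfra nuclei lay above Ttn nuclei in all 5 libraries for Tbx4, and in the 4 with UMIs for Pitx1.

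Hoxa10, which patterns the proximal limb, had 52.3, 121, 63.6, 33.2 and 42.2 CPM in Pdgfra nuclei, against 20.8, 25.7, 22.7, 13.5 and 6.78 CPM in Ttn nuclei (1.30, SE 0.27, edgeR adjusted p = 0.00032). Hoxa9 had 72.2, 94.6, 84.7, 52.7 and 21.1 CPM in Pdgfra nuclei, against 35.3, 27.3, 43.6, 25.0 and 13.3 CPM in Ttn nuclei (0.71, SE 0.21, edgeR adjusted p = 0.00837). The Hoxa9 call was lost without the E14.5 library (adjusted p = 0.0746) and without the KO library (0.0828). Hoxd11, of the distal limb, had 9.25, 23.4, 12.0, 4.62 and 0 CPM in Pdgfra nuclei, against 1.44, 3.45, 3.31, 1.14 and 0 CPM in Ttn nuclei (1.96, SE 0.41, edgeR adjusted p = 0.0007). The Hoxb4 call (1.96) was lost without the E14.5 library (adjusted p = 0.108), and the Hoxc6 call (0.73) in 7 alternative settings with adjusted p of 0.0556 to 0.151.

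The 1 lower member was Hoxa7, with 8.81, 7.28, 6.55, 5.71 and 7.03 CPM in KO, E14.5, E18.5, P5 and adult Pdgfra nuclei, against 13.5, 6.99, 16.4, 24.1 and 27.3 CPM in Ttn nuclei (-1.51, SE 0.32, edgeR adjusted p = 0.000455). At E14.5 its Pdgfra value was no lower than its Ttn value. Hoxc6 had 45.9, 27.8, 39.7, 38.9 and 70.3 CPM in Pdgfra nuclei, against 22.3, 12.2, 19.1, 19.2 and 20.9 CPM in Ttn nuclei.

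**Figure D3:**
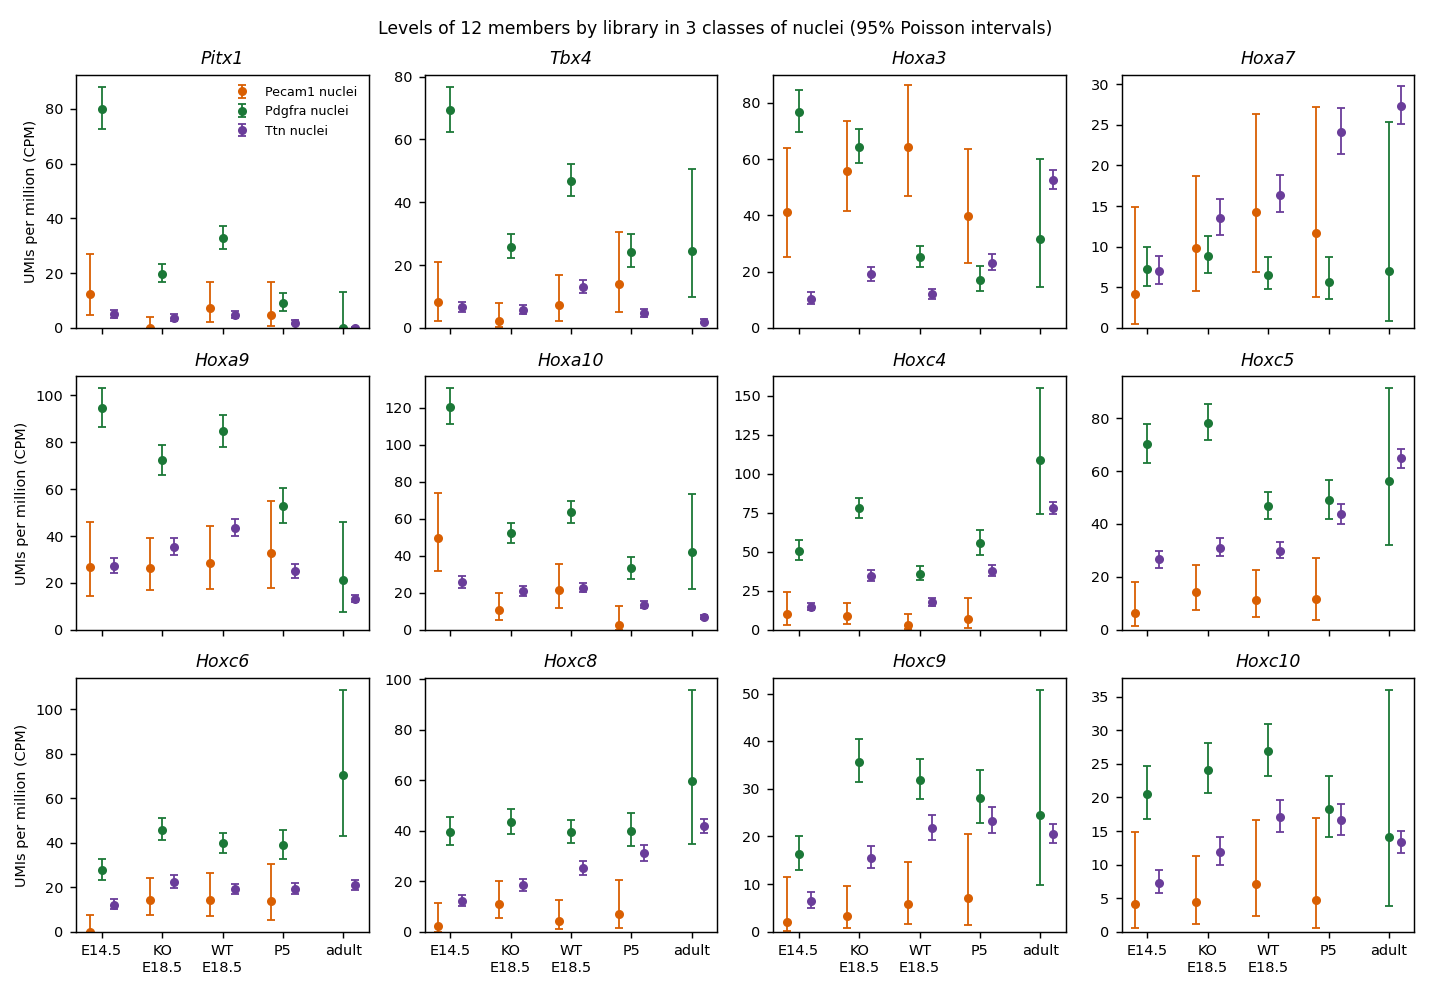
CPM with 95% intervals for counting error of the 12 members with values given in every library, in Pecam1, Pdgfra and Ttn nuclei, on linear axes from 0 that differ between genes. Adult Pecam1 nuclei, fewer than 20, are not shown. Pdgfra nuclei lie above the other classes shown for Tbx4 and Hoxa9 in every library. For Hoxa7 the Ttn values lie above the Pdgfra values in every library but E14.5.

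The remaining named genes did not pass between Pdgfra and Ttn nuclei. Hoxc4 had 77.9, 50.7, 36.0, 55.5 and 109 CPM in KO, E14.5, E18.5, P5 and adult Pdgfra nuclei, against 34.5, 14.8, 17.7, 37.8 and 77.8 CPM in Ttn nuclei, higher in all 5 libraries by CPM. Hoxc5 had 78.3, 70.1, 46.8, 48.9 and 56.2 CPM in Pdgfra nuclei, against 31.1, 26.6, 29.9, 43.8 and 64.8 CPM in Ttn nuclei. Hoxc8, Hoxc9 and Hoxc10, with mid to posterior numbers, had 14.1 to 59.7 CPM in Pdgfra nuclei and 6.50 to 41.8 CPM in Ttn nuclei. Hoxa3 had 64.4, 76.8, 25.2, 17.1 and 31.6 CPM in Pdgfra nuclei, against 19.0, 10.4, 11.9, 23.2 and 52.6 CPM in Ttn nuclei, so its order between the classes turned between E18.5 and P5.

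Pax7 nuclei and Tnmd nuclei gave no call by edgeR. Of 19 members none was higher or lower in Pax7 than in Ttn nuclei, where 13.2% of all genes were higher and 21.8% lower, and 1 member (Hoxa7, log2 difference -0.95) had an unadjusted p below 0.05, at 0.0211. DESeq2 called none. With library totals 9 members were higher and none lower, with 4156 genes higher and 1184 lower in all, while the median of all genes moved to 0.44 from -0.17, so no direction is drawn from Pax7 nuclei. Between Tnmd and Pdgfra nuclei none was higher or lower, where 2.24% of all genes were higher and 1.88% lower. Hoxd11 had 22.6, 19.4, 25.8 and 25.6 CPM in KO, E14.5, E18.5 and P5 Tnmd nuclei, against 9.25, 23.4, 12.0 and 4.62 CPM in Pdgfra nuclei (1.21, unadjusted p = 0.0149), and DESeq2 called none. Tbx4 had 45.2, 97.0, 64.8 and 40.5 CPM in Tnmd nuclei, and Pitx1 18.8, 63.1, 29.1 and 19.2 CPM.

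Stage was described in Pdgfra nuclei with no test, by counting members at least 2-fold apart with at least 20 UMIs in 1 of both libraries. At E18.5 no member of 24 was higher than at E14.5 (8.59% of all genes) and 8 were lower (10.8% of all genes): Hoxa3, Hoxa5, Hoxa11, Hoxb3, Hoxb4, Hoxb5, Hoxb6 and Pitx1. At P5 no member of 19 was higher than at E18.5 (3.52%) and 4 were lower (9.67%), namely Pitx1, Hoxd4, Hoxd8 and Hoxd11. In adult 1 of 15 was higher than at P5 (8.61%), Hoxa5 with 4 adult UMIs, and 1 was lower (19.7%), Hoxa9.

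In E14.5, E18.5, P5 and adult Pdgfra nuclei Pitx1 thus stood at 80.0, 32.9, 8.97 and 0 CPM (no UMI in adult, against 418 at E14.5) and Tbx4 at 69.3, 46.9, 24.2 and 24.6 CPM. In Ttn nuclei Pitx1 had 2 UMIs in adult, against 51 at E14.5, a 49.6-fold lower level, and Tbx4 was 3.26-fold lower in adult. Hoxa10 was 3.79-fold and Hoxa9 2.06-fold lower in adult Ttn nuclei, and Hoxd11 had no adult UMI, against 35 at E14.5.

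Most Hoxc genes were higher in adult Ttn nuclei than at E14.5, and the Hoxc sum was higher in adult in both Ttn and Pdgfra nuclei. In Ttn nuclei their summed level in adult was 2.90-fold that at E14.5 (2.70 to 3.12), where the median gene stood at 0.637-fold. Hoxc4 was 5.27-fold higher (4.45 to 6.27), Hoxc8 3.45-fold, Hoxc9 3.17-fold and Hoxc5 2.44-fold, while Hoxc11 stood at 0.918-fold (0.621 to 1.37), and among Hoxa genes Hoxa5 was 5.60-fold, Hoxa3 5.04-fold (4.13 to 6.22) and Hoxa7 3.91-fold higher. In Pdgfra nuclei the Hoxc sum was 233 CPM (220 to 246) at E14.5 and 337 CPM (273 to 412) in adult. There Hoxc4 was 2.15-fold higher in adult than at E14.5 (1.43 to 3.12) and Hoxc6 2.53-fold. Hoxc5 stood at 0.802-fold (0.454 to 1.32), Hoxc10 at 0.686-fold (0.184 to 1.81) and Hoxc11 at 0.447-fold (0.0111 to 2.64). From E14.5 to E18.5, to P5 and to adult, Hoxc8 moved by log2 -0.01, 0.02 and 0.58, and Hoxc9 by 0.97, -0.19 and -0.19. Among Hoxa genes Hoxa3 stood at 0.412-fold (0.19 to 0.79), Hoxa9 at 0.22-fold and Hoxa10 at 0.35-fold, where the median gene stood at 0.871-fold.

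**Figure D4:**
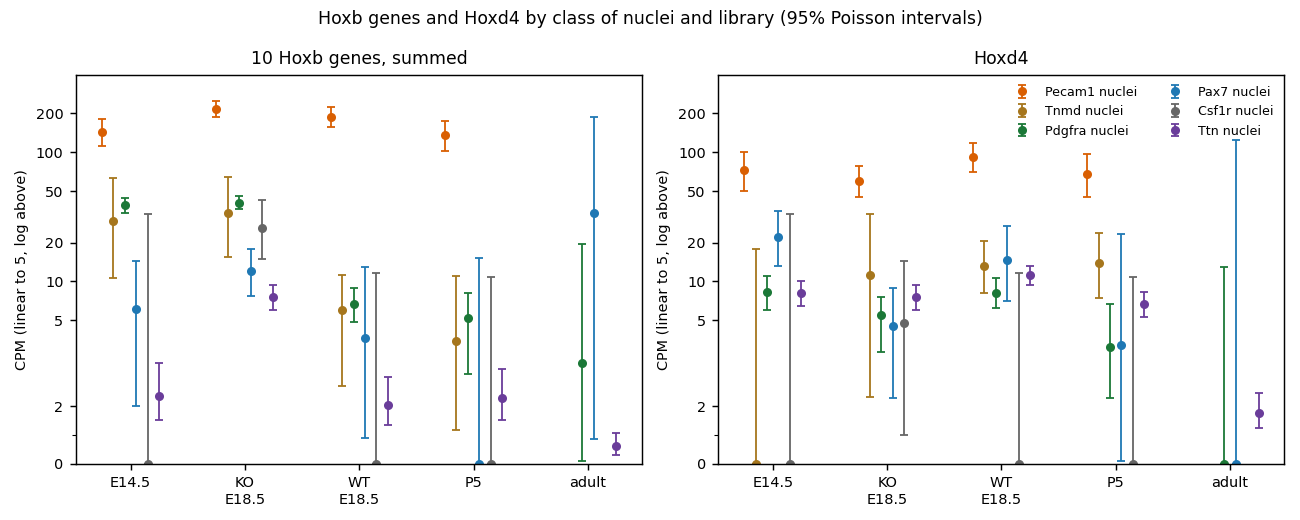
Summed CPM of the 10 Hoxb genes, with 95% intervals for counting error by class and library (left), and CPM of Hoxd4 (right), on axes that are linear to 5 CPM and logarithmic above. Pecam1 nuclei hold the highest values in the 4 libraries with at least 20 of them, and in Pdgfra nuclei the KO (40.7 CPM) and E14.5 (38.9 CPM) libraries lie above the WT E18.5 library (6.68 CPM).

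In E18.5 Pdgfra nuclei, 6 of 23 members were at least 2-fold higher in KO than in wild type (6.79% of all genes) and 2 were at least 2-fold lower (5.33%). The 6 were Hoxc4, Hoxa3, Hoxb3, Hoxb4, Hoxb5 and Hoxb6, and the 2 lower were Hoxd8 and Hoxd10. The Hoxb genes summed to 40.7 CPM (282 UMIs) in KO, against 6.68 CPM (49 UMIs) in wild type, 6.10-fold (4.49 to 8.44). Hoxb3 stood 11.3-fold (5.71 to 25.5), Hoxb4 10.3-fold (3.73 to 39.8), Hoxb6 5.12-fold (3.06 to 9.04) and Hoxb5 4.84-fold (2.10 to 13) higher. Hoxa3 was 2.55-fold (2.15 to 3.05) and Hoxc4 2.16-fold (1.86 to 2.52) higher, while Tbx4 stood at 0.551-fold (0.458 to 0.662) and Pitx1 at 0.602-fold (0.485 to 0.746).

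Endothelial genes and the Hoxb sums of the other classes are given beside this difference, and their part in it was not tested. Endothelial markers summed to 98.4 CPM in KO Pdgfra nuclei and 108 CPM in wild-type E18.5 Pdgfra nuclei. Hoxd3 was 1.08-fold (0.735 to 1.58) and Hoxd4 0.671-fold (0.435 to 1.02) in KO over wild-type Pdgfra nuclei. In Pecam1 nuclei the Hoxb sum was 217 CPM in KO and 189 CPM in wild type, 1.15-fold (0.916 to 1.44). The KO values were also the higher ones in the other classes. In Ttn nuclei it was 7.56 CPM in KO and 2.05 CPM in wild type, 3.69-fold (2.35 to 5.96), in Tnmd nuclei 33.9 and 6.0 CPM, in Pax7 nuclei 12.0 and 4.39 CPM and in Csf1r nuclei 26.1 and 0 CPM (16 and 0 UMIs). The E14.5 Pdgfra level of 38.9 CPM was close to that of KO. Each group is 1 pool of hindlimbs, so differences between pools and between genotypes cannot be told apart.

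The Hoxb UMIs were spread over many nuclei: 145 of 844 KO Pdgfra nuclei (17.2%) held at least 1, as did 132 of 1192 at E14.5 (11.1%), 32 of 1142 at E18.5 (2.80%) and 16 of 684 at P5 (2.34%), with at most 8 in 1 nucleus. Thinned to 1000 UMIs per nucleus, which left out none in KO and 13, 9 and 8 nuclei at E14.5, E18.5 and P5, the shares were 3.32% (2.22 to 4.76) in KO, 3.31% (2.36 to 4.49) at E14.5, 0.618% (0.249 to 1.27) at E18.5 and 0.296% (0.0358 to 1.06) at P5. Csf1r nuclei had 1 of 86 in KO (1.16%, 0.0294 to 6.31) and none of 48 at E18.5 (0 to 7.40). These intervals hold the Pdgfra shares of the same libraries, so they do not separate the classes. The part of depth and of stray RNA in the KO difference was not tested. Nuclei with a Hoxb UMI had less Tbx4 in KO (7.58 CPM, 3.78 to 13.6) than those without (30.7 CPM, 26.2 to 35.7), and at E14.5 (25.3 CPM, 14.7 to 40.5, against 75.8 CPM, 68.0 to 84.3), but not in wild-type E18.5 (45.3 against 47.0 CPM). At P5 the 16 nuclei with a Hoxb UMI held 1 Tbx4 UMI (9.11 CPM, 0.231 to 50.8), against 24.7 CPM (19.8 to 30.4) in those without. The Hoxc sums of nuclei with a Hoxb UMI were higher, at 429 against 282 CPM in KO and 369 against 213 CPM at E14.5. At E18.5 they were 371 against 223 CPM and at P5 383 against 231 CPM. Nuclei were split here by a measured value, so these are descriptions.

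Open chromatin was counted in peaks within 1000 bases of a start site. Of 41 members, 26 had such a peak in KO and 23, 27, 24 and 30 in the E14.5, E18.5, P5 and adult libraries, 20 had one in all 5 and 9 had none (Hoxc6, Hoxc11, Hoxb1, Hoxb2, Hoxb3, Hoxb7, Hoxb8, Hoxa2 and Hoxd12). Over all genes 45.8% had one in all 5 and 39.9% had none. Hoxa13, Hoxc13, Hoxd13 and Hoxd1, the distal limb genes and an anterior gene with few UMIs, had peaks in all 5 libraries.

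Of the 20 members tested among 14662 genes by edgeR, 3 were more accessible in Pdgfra than in Ttn nuclei, where 9.11% of all genes were, and 1 was less accessible, where 7.69% were. Pitx1 had 31.4, 46.7, 36.9, 18.3 and 17.9 ATAC counts per 1000000 in KO, E14.5, E18.5, P5 and adult Pdgfra nuclei, against 6.96, 8.50, 9.57, 7.31 and 9.40 in Ttn nuclei (log2 1.66, SE 0.33, edgeR adjusted p = 7.93e-05). Tbx4 had 33.7, 48.6, 33.2, 28.9 and 15.7 in Pdgfra nuclei, against 15.0, 20.4, 21.1, 13.8 and 4.87 in Ttn nuclei (1.03, SE 0.30, edgeR adjusted p = 0.00984). Hoxa10 had 65.1, 63.4, 49.2, 78.3 and 71.7, against 40.9, 36.2, 30.5, 57.1 and 31.6 (0.66, SE 0.16, edgeR adjusted p = 0.00178). For these 3 genes RNA and accessibility were both higher in Pdgfra nuclei.

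Hoxa5 was the less accessible one, with 16.8, 14.1, 3.66, 6.08 and 5.97 in Pdgfra nuclei, against 31.8, 19.1, 24.3, 33.2 and 29.5 in Ttn nuclei (-1.83, SE 0.34, edgeR adjusted p = 3.28e-05). Its RNA went the other way without passing the test (log2 0.79, SE 0.35, edgeR adjusted p = 0.0647). These 4 accessibility calls held in all 10 alternatives. Between KO and wild-type Pdgfra nuclei at E18.5, Hoxa5 was 4.60-fold (2.86 to 7.45) and Hoxa3 1.98-fold (1.61 to 2.43) more accessible, at a median of 1.11-fold over all genes. Hoxa7 stood at 2.10-fold (1.64 to 2.67) and Hoxc10 at 1.94-fold (1.65 to 2.27). Hoxd8 stood at 2.04-fold (1.55 to 2.69) and Hoxd10 at 1.55-fold (1.17 to 2.04), although their RNA was at least 2-fold lower in KO. Tbx4 stood at 1.01-fold (0.791 to 1.29) and Pitx1 at 0.851-fold (0.660 to 1.09). Peaks were called and totalled library by library, so these KO ratios compare unlike intervals. The Hoxd8 peak had 862 bases in KO and 774 in wild type. In Pax7 over Ttn nuclei Hoxa3 (0.84, edgeR adjusted p = 0.0339) and Hoxa11 (1.12, 0.0302) were more accessible, where 4.25% of all genes were, and no member was less so, where 3.07% were. Both calls were lost without the E14.5, E18.5, P5 or KO library.

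**Figure D5:**
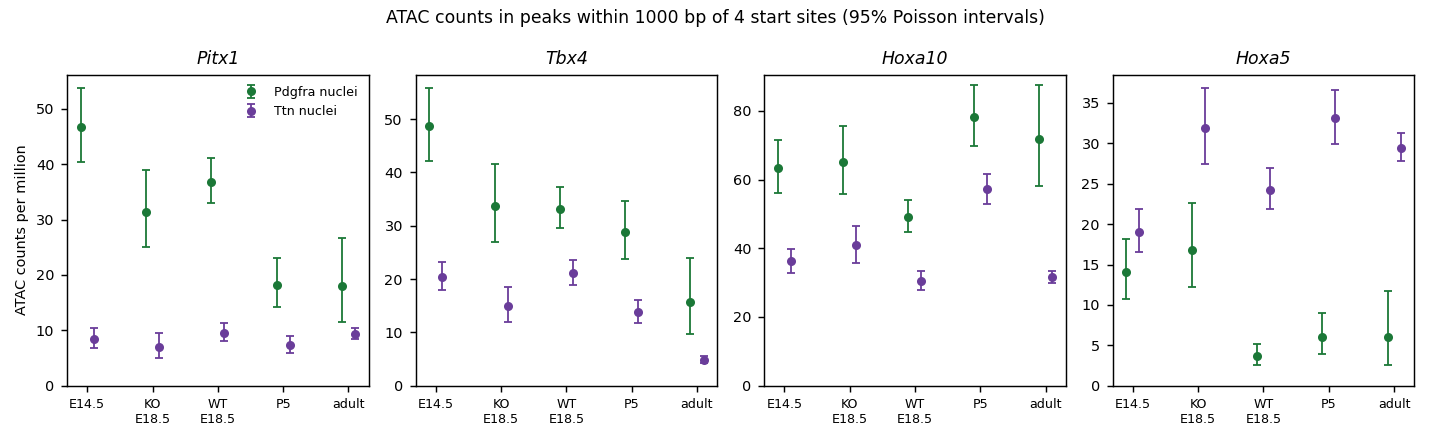
ATAC counts per 1000000 near start sites, with 95% counting intervals, of the members with an accessibility difference, in Pdgfra and Ttn nuclei of each library. Pitx1, Tbx4 and Hoxa10 are higher and Hoxa5 lower in Pdgfra nuclei in all 5 libraries.

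Promoter sequences of 23 of the 41 members were matched in RefSeq (GRCm38.p6), from 250 bases before to 50 after the start. They are shown for 3 members with an accessibility difference, and for Hoxd4, which was high in endothelial-type nuclei. All are written 5′ to 3′ on the gene's strand. The Hoxd4 window overlapped no peak in any library. Another start of Hoxd4, at 74727074, lay in a peak in the E14.5 and adult libraries. The RefSeq starts of Tbx4, Hoxa10 and Hoxd4 lie inside longer gene models. The Hoxa10 model spans 52231197 to 52240854 and the Hoxd4 model 74711929 to 74729160. Capitals mark matches to the TATA box TATAAA, to the T-box type motif AGGTGT and to the posterior Hox type motif TTTATGG, on either strand; none of these matches overlap in the windows shown. A match describes letters only.
Tbx4 promoter, chr11:85896515-85896814, plus strand: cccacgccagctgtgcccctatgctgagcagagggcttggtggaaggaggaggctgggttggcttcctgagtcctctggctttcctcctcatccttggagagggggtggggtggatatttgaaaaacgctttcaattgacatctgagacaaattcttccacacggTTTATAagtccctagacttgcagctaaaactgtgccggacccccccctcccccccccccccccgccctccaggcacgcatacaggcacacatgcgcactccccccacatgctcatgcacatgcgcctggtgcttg
Hoxa10 promoter, chr6:52234890-52235189, minus strand: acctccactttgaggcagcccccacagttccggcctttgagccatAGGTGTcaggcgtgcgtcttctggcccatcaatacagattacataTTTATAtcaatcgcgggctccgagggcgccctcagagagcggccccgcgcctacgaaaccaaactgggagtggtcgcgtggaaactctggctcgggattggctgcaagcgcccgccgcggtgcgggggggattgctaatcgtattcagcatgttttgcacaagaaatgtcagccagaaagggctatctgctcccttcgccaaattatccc
Hoxa5 promoter, chr6:52204538-52204837, minus strand: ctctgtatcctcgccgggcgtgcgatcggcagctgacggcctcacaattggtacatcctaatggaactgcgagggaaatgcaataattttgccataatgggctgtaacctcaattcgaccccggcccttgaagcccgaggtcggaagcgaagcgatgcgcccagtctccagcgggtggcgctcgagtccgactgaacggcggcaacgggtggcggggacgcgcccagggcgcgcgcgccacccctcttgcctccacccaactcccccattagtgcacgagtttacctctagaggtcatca
Hoxd4 promoter, chr2:74721728-74722027, plus strand: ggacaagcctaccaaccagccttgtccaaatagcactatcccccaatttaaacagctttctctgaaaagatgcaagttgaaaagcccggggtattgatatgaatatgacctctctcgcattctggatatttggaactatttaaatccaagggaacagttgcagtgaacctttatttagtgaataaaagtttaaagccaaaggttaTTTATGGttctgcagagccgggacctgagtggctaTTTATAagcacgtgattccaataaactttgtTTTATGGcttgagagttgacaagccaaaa
The Tbx4 and Hoxa5 windows lay wholly inside peaks in 5 libraries and the Hoxa10 window in 4. Hoxa10, Hoxb4 and Hoxd9 held AGGTGT, which 13.7% of 32851 promoters hold, Hoxd4 held TTTATGG (2.75%), and 5 members held TATAAA (13.6%). No member window held TAATCC, the bicoid-type motif, which 7.06% of promoters hold.

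Members left out by the filter are given by their levels. Hoxb5 had 44.9, 8.26, 20.0 and 11.7 CPM in KO, E14.5, E18.5 and P5 Pecam1 nuclei, against 4.62, 4.21, 0.955 and 0.272 CPM in Pdgfra nuclei, and Hoxb9 had 10.9, 20.6, 17.2 and 0 CPM, against 1.73, 2.68, 0.136 and 0.272 CPM. Hoxa11, which acts in the lower leg, had 2.75, 10.1, 2.18, 1.09 and 0 CPM in KO, E14.5, E18.5, P5 and adult Pdgfra nuclei, against 1.08, 2.26, 1.81, 0.572 and 0.101 CPM in Ttn nuclei. Hoxc11 had 7.08, 7.85, 7.09, 6.52 and 3.51 CPM in Pdgfra nuclei, against 5.94, 4.14, 8.29, 6.71 and 3.80 CPM in Ttn nuclei, a range in which both classes overlapped. Hoxa2, Hoxa4, Hoxa6, Hoxa13, Hoxb2, Hoxb7 and Hoxb8 had 19 to 93 UMIs each over all classes and libraries.

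Related genes were followed from lists chosen with earlier results known. Among limb patterning factors, 7 of 18 were tested by edgeR, and 6 were higher in Pdgfra than in Ttn nuclei, where 23.9% of all genes were higher and 25.0% lower: Shox2 (3.17), Gli3 (3.14), Lmx1b (3.04), Tbx2 (2.04), Tbx3 (1.85) and Prrx1 (1.13), and none was lower. Of 7 tested of 9 TALE cofactors, which bind DNA with Hox proteins, Meis2 (3.15) and Pknox1 (0.84) were higher and Pknox2 (-1.49) lower in Pdgfra than in Ttn nuclei, near the shares of all genes. In Pecam1 over Pdgfra nuclei 3 TALE cofactors were lower, Meis1 (-2.40), Meis2 (-1.64) and Pknox2 (-1.30), with 5 of the 7 limb factors, where 10.6% of all genes were lower. Tbx5, the forelimb counterpart of Tbx4, had 6.65 CPM in KO and 13, 8.86, 5.98 and 7.03 CPM in wild-type Pdgfra nuclei. Polycomb and trithorax genes, which keep Hox genes silent or active, had 3 higher and 1 lower of 14 tested in Pdgfra over Ttn nuclei, no larger shares than the 23.9% and 25.0% of all genes.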

How the data were processed

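The authors deposited raw whole-number counts: RNA UMIs for each gene and ATAC counts for each peak. They came from Cell Ranger ARC 2.0.0 on mm10, which counted intronic reads and called peaks library by library. Whether counting used the strand is not given in the sources used here. Members and gene lists were chosen with earlier results of these data known. Values in every library were given for Tbx4, Pitx1 and the 10 Hox genes with the most UMIs, and other members were named where a count turned on them. The values of 1 low member are not reported here.

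Nuclei had over 400 and under 25000 UMIs, less than 10% of them mitochondrial, and fewer than 70000 ATAC counts. No doublet caller was run. UMIs were summed per class and library (at least 20 nuclei) and tested with edgeR 4.0.16 (quasi-likelihood, TMM, filterByExpr, adjusted p under 0.05, R 4.3.3), with the library as a term, since nuclei are not replicates. DESeq2 1.42.0, other filters, classes and scalings, and leaving out each library were alternatives. The study tested single nuclei, which was not done here. Stage and genotype had 1 library per group and no test: a member was counted when at least 2-fold apart with at least 20 UMIs in 1 of both libraries, with a 0 set to a floor of 3 counts. Intervals are exact (Poisson, conditional or binomial, 95%) and cover counting error only. Gene models are GENCODE vM21 and promoters RefSeq. The fits were tested on simulated data. Sums and figures used matplotlib 3.10.9, pandas 2.3.3, scipy 1.17.1 and numpy 2.4.6 in Python 3.11.15.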

Additional observations from a re-analysis of the deposited data

Results flagged for a closer look

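Hoxa3 moved in opposite directions in connective tissue and muscle nuclei. P5 over E18.5 its CPM ratio was 0.679 in Pdgfra nuclei and 1.95 in Ttn nuclei, and adult over E14.5 it was 0.412 in Pdgfra nuclei and 5.04 in Ttn nuclei. Tbx4 did so E18.5 over E14.5, with a ratio of 0.677 in Pdgfra nuclei and 1.97 in Ttn nuclei. Connective tissue markers in Ttn nuclei also rose between these libraries, from 273 CPM at E14.5 to 1536 CPM at E18.5. Their part in the Tbx4 ratio was not tested. The intervals of each ratio lay on opposite sides of 1 in both classes, and the differences between classes were not tested, since each stage was 1 library.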

How the results depend on the processing

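The count of members higher in Pdgfra than in Ttn nuclei was 9, between 6 and 10 when 1 library was left out and 16 with library totals (chosen after seeing the data), and the count lower was 1 to 2 without 1 library. Of these 10 RNA calls 7 held in all 15 alternatives. In Pax7 over Ttn nuclei 9 were higher with library totals, and lower members numbered 0 to 1 without 1 library, 1 with no filter, no library block or Ttn at least 2%, and 2 with 2 UMIs of the marker. In Pecam1 over Pdgfra nuclei 4 to 7 were higher and 10 to 11 lower without 1 library, and 10 were higher with no filter. In that comparison 13 of 16 calls held throughout. Accessibility in Pax7 over Ttn nuclei gave 0 to 2 higher without 1 library and 0 with overlapping classes. Members E18.5 over E14.5 had 1 higher (1.5-fold, TMM, overlapping classes or 2 UMIs) and 13 lower (at least 5 UMIs). P5 over E18.5 had 1 higher (1.5-fold or 5 UMIs) and 8 (1.5-fold) or 10 (5 UMIs) lower. Adult over P5 had 5 (1.5-fold), 6 (5 UMIs), 2 (overlapping classes) or 3 (2 UMIs) higher and 2 (1.5-fold) or 0 (2 UMIs) lower. KO over wild type had 4 (1.5-fold) or 1 (2 UMIs) lower. Of single-member results 1479 kept their call, 31 gained and 26 lost one, and no called value turned its direction. The causes were not tested. Classes were compared within libraries through the library term. No paired analysis was possible because stages and genotypes have 1 library each, so replicate numbers pair nothing between them.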

Other observations

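Nuclei with a UMI of Hoxa13 or Hoxd13, the most distal limb genes, numbered 21 in KO and 29, 13, 11 and 6 in the E14.5, E18.5, P5 and adult libraries. Among noncoding partners in the Hox clusters, 9 of 15 were matched and 2 tested. Hoxd3os1, which lies on the strand opposite Hoxd3 and Hoxd4, was higher in Pecam1 than in Pdgfra nuclei (log2 2.83) as those genes were, and without knowledge of strand use in counting their reads cannot be told apart.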
